A study of Mus musculus with 3 samples.

Results

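The 59 genes described here encode SNARE proteins and the proteins that steer them during vesicle exocytosis. They were chosen by symbol alone, as the SNAP (Snap), syntaxin (Stx), VAMP (Vamp), syntaxin-binding (Stxbp), complexin (Cplx), synaptotagmin (Syt), SV2 (Sv2) and RAB3 (Rab3) families, and have 60 probe sets with a single gene symbol among 19938 genes measured in this way. Expression was measured on 3 mouse arrays of sarcoma cells carrying an inducible EWS/ATF1 fusion, which joins the start of the RNA-binding protein EWSR1 to the CREB-family factor ATF1 and is found in human clear cell sarcoma. By its label, the tumor-labelled array carries RNA of a tumor resected from a mouse with the inducible fusion that had received doxycycline for 3 months. By theirs, the doxycycline-labelled array (labelled high doxycycline) carries RNA of cultured tumor cells 24 h after exposure to 0.2 microg/ml doxycycline, and the control-labelled array that of tumor cells cultured for the same time at 0 microg/ml. All are labelled as tumor cells of a soft tissue sarcoma on a mixed C57/BL6, 129 and ICR background. The cultures share one number in the labels and the tumor has another, and the sources used here do not give the promoter that drives the fusion. Each group has 1 array, so no difference could be tested, there is no replicate check, and every fold below describes these 3 arrays only.

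Exocytosis joins a vesicle to the plasma membrane when a VAMP on the vesicle zips together with a syntaxin and a SNAP protein on the target membrane. Syntaxin-binding proteins of the Munc18 type hold and guide the syntaxin, complexins clamp the partly built complex, synaptotagmins on the vesicle sense calcium or help to dock it, SV2 glycoproteins sit in the vesicle membrane, and RAB3 GTPases bring vesicles to the release site. Neurons and endocrine cells use a specialised set for regulated release, built around SNAP25, whereas every cell uses other syntaxins, VAMPs and SNAP proteins to move membrane between the endoplasmic reticulum, Golgi, endosomes and lysosomes.

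Promoter stretches of 4 members are shown because ATF1 binds the cAMP response element (CRE). Each stretch is 100 bases long, 5′ to 3′ on the gene's strand, and lies upstream of a RefSeq transcript start (GRCm38.p6). It runs from 100 to 1 bases before the start in Rab3a and Stxbp4, from 150 to 51 in Stxbp3 and from 250 to 151 in Rab3b. Capitals mark a full CRE (TGACGTCA) in Stxbp3, and its core (TGACG, or CGTCA when read on the other strand) in Rab3a and Rab3b. The stretch of Stxbp4, by its brighter probe set the member with the widest difference between arrays, holds no such letters.
Stxbp3 (chr3:108840553-108840652, minus strand): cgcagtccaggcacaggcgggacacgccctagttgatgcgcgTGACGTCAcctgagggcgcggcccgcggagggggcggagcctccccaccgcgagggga
Rab3a (chr8:70754603-70754702, plus strand): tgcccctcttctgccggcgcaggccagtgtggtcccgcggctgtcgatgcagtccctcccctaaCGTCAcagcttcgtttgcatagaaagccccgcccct
Rab3b (chr4:108878820-108878919, plus strand): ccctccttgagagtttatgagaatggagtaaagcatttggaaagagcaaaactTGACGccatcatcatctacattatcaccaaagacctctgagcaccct
Stxbp4 (chr11:90638109-90638208, minus strand): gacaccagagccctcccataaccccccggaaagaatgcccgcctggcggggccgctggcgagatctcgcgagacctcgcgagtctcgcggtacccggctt

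Before the members, the arrays themselves need a description, because tissue genes went against the labels. Of 11 macrophage genes, 1 exceeded the median intensity on the tumor-labelled array, 1 on the doxycycline-labelled array and all 11 on the control-labelled array, with summed intensities of 1270, 1592 and 28566 in that order. Skeletal muscle genes summed to 1455, 1673 and 30494, connective tissue genes to 2054, 1592 and 50269, and endothelial genes to 697, 776 and 6814. Mast cell genes summed to 497, 514 and 911, but only 0, 0 and 1 of 6 exceeded the median, so most of these values are dim. No marker was at 0, since the lowest intensity was 20.7 on the tumor-labelled array, 21.0 on the doxycycline-labelled array and 20.9 on the control-labelled array. On the tumor-labelled array 6 of 7 connective tissue, 3 of 8 muscle and 0 of 6 endothelial genes exceeded the median. On the doxycycline-labelled array 5, 4 and 0 did, and on the control-labelled array 7, 8 and 5. Macrophage, vessel, muscle and matrix genes were thus brighter on the control-labelled array, which the series describes as cultured cells, than on the tumor-labelled array. Whether these arrays carry the RNA that their labels name is therefore in doubt, and an exchange of labels was not tested. A bulk array cannot tell fewer cells of a type from less RNA per cell, and how far this difference in tissue genes enters the member differences was not tested. Directions below are between arrays named by their labels and say nothing further about treated cells or tumor tissue.

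**Figure D1:**
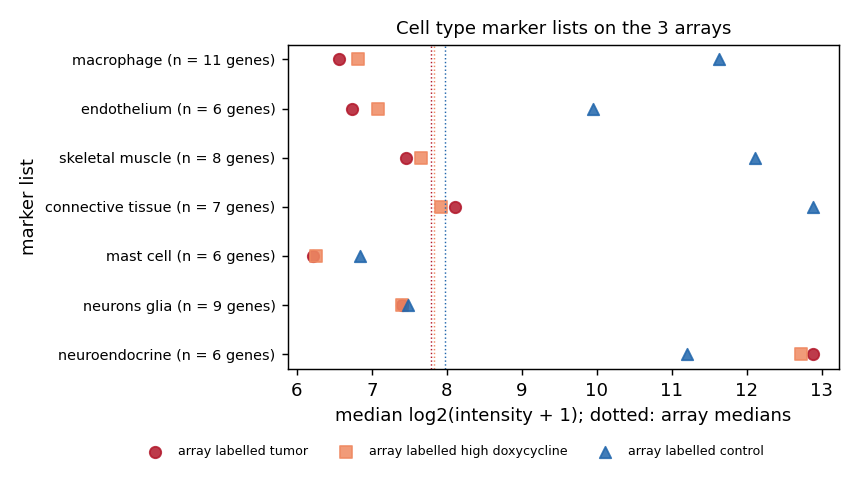
Median log2(intensity + 1) of 7 marker gene lists (rows) on the tumor-labelled (circles), doxycycline-labelled (squares) and control-labelled (triangles) arrays, with the array medians as dotted lines. Macrophage, endothelial, skeletal muscle and connective tissue lists lie far to the right on the control-labelled array, and the neuroendocrine list lies to the right on the other 2 arrays.

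Neuroendocrine and neuronal lists did not share that order. The 6 neuroendocrine genes, which include the granule protein genes Chga, Chgb and Scg2, were above the median on every array and summed to 40385 on the tumor-labelled array, 36315 on the doxycycline-labelled array and 18824 on the control-labelled array. The 9 neuron and glia genes measured, such as Tubb3 and Elavl3, summed to 4278, 4718 and 3897 in that order. On each array 4 of 9 were above the median, though not the same 4. Nefl, the only gene of this list past 2-fold, had 404, 355 and 159 and exceeded the median on the first and second arrays alone. Mbp had 154, 164 and 258 and exceeded it on the control-labelled array alone. Rbfox3, a marker of mature neurons, lay below the median on all 3 arrays.

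Members were compared on a pair of arrays if the higher value exceeded the median of its array, and counts take a difference of at least 2-fold on the log2(intensity + 1) scale. Of the 59 members, 46 lay above the median on the tumor-labelled array, 43 on the doxycycline-labelled array and 43 on the control-labelled array (78.0%, 72.9% and 72.9%, where all genes gave 55.1%, 55.1% and 55.2%). The 12 members below the median on all arrays were Cplx2, Cplx3, Cplx4, Stx19, Stxbp6, Sv2b, Syt2, Syt8, Syt9, Syt10, Syt13 and Syt16. Among them were 6 of 17 synaptotagmins and 3 of 4 complexins. The share of all genes below the median on all arrays was not counted, so these counts describe no trait of a family.

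Between the tumor-labelled and control-labelled arrays, 17 of 47 members above the filter were at least 2-fold brighter on the tumor-labelled array (36.2%), where 18.5% of all 12010 genes were. Dimmer by that margin were 2 of 47, Syt7 and Sv2c (4.26%), against 10.2% of all genes. The median log2 difference of these 47 members was 0.49, beside 0.075 over all genes. Between the doxycycline-labelled and control-labelled arrays, 13 of 44 members were brighter on the doxycycline-labelled array (29.5%), where 17.4% of all genes were, and 0 of 44 were dimmer, where 8.45% of all genes were. Their median was 0.48, beside 0.083 over all genes. Both comparisons share the control-labelled array, so that the 11 members brighter than control in both (11 of 17 in the list of the tumor-labelled array and 11 of 13 in that of high doxycycline) are no independent repeat. The overlap over all genes was not counted, so this overlap describes no trait of the members. The count for high doxycycline was 8 of 44 under quantile normalization (18.2%, with 14.6% of all genes). Above percentile 75 of brightness, 14 of 32 members were brighter on the tumor-labelled array (43.8%, with 24.0% of all genes) and 13 of 31 on the doxycycline-labelled array (41.9%, with 22.8% of all genes). Without any brightness filter the counts were 17 of 59 (28.8%, with 11.3% of all genes) and 14 of 59 (23.7%, with 10.6% of all genes), and the member medians were 0.024 and 0.076.

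**Figure D2:**
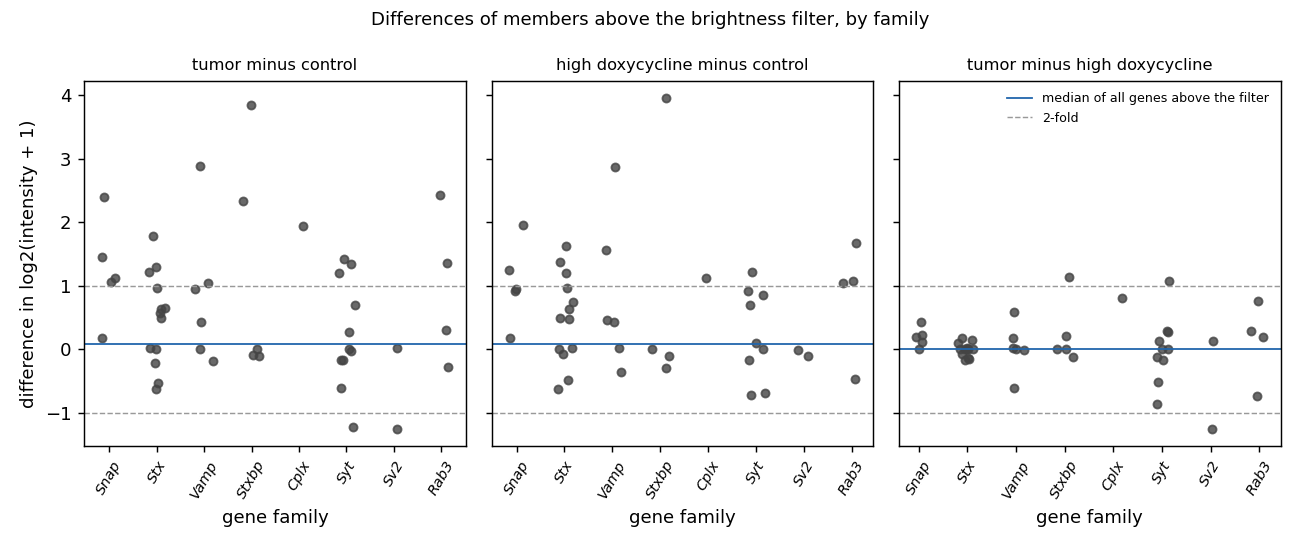
Difference in log2(intensity + 1) of each member above the brightness filter (points) by gene family, for tumor minus control, high doxycycline minus control and tumor minus high doxycycline, with the median of all genes as a blue line and 2-fold as dashed lines. Points reach 3.84 and 3.96 (Stxbp4) in the comparisons with the control-labelled array and lie between -1.25 and 1.14 in the third panel.

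In the SNAP family, which supplies a pair of helices to the SNARE bundle, 4 of 5 genes passed 2-fold, all brighter on the tumor-labelled than on the control-labelled array (18.5% of all genes), and 2 of 5 were so on the doxycycline-labelled array (17.4% of all genes). Snap25, the SNAP protein of neurons and endocrine cells, had intensities of 7476 on the tumor-labelled array, 5542 on the doxycycline-labelled array and 1421 on the control-labelled array. It was the family member with the widest difference, 5.26-fold and 3.90-fold brighter than on the control-labelled array. Snap23, its counterpart in most other cells, had 4458, 3887 and 1630 in the same order (2.73-fold and 2.38-fold). Both the neuronal and the general SNAP were therefore dimmest on the control-labelled array. Snap29, which acts in autophagosome and endosome fusion, had 1441, 1239 and 659, and Snap47, a broadly expressed relative, had 2757, 2554 and 1322. Each passed 2-fold against the control-labelled array on the tumor-labelled array (2.19-fold and 2.09-fold) and lay just under it on the doxycycline-labelled array (1.88-fold and 1.93-fold). Snap91 shares the symbol but encodes a clathrin assembly protein and no SNARE, and its 1718, 1718 and 1527 differed little.

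Among the syntaxins, 3 of 13 above the filter were at least 2-fold brighter on each of these arrays than on the control-labelled array (23.1%), near the 18.5% and 17.4% of all genes. Stx7, a late endosome syntaxin, had 2436 on the tumor-labelled array, 2196 on the doxycycline-labelled array and 709 on the control-labelled array (3.43-fold and 3.09-fold). Stx12, of recycling endosomes, had 2193, 2323 and 897 (2.44-fold and 2.59-fold), and Stx18, of the endoplasmic reticulum, had 905, 897 and 388 (2.33-fold and 2.31-fold). None of the other syntaxins above the filter passed 2-fold, those of the plasma membrane included. Stx1a, the partner of SNAP25 in neurons, had 547, 602 and 637, Stx4a had 577, 541 and 832, and Stx3 had 300 on each of the 3 arrays. Stx2, also found at the plasma membrane, had 2683 on the tumor-labelled and doxycycline-labelled arrays and 1380 on the control-labelled array, just under 2-fold (1.94-fold). Stx11, best known from cytotoxic lymphocytes, was brightest on the control-labelled array, with 353, 391 and 547. The syntaxins Stx5a, Stx6, Stx8, Stx16 and Stx17 had log2 differences between 0.02 and 0.75 against the control-labelled array. Stx19 lay below the median on every array.

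Among the VAMPs, Vamp7 had the widest difference. This VAMP of late endosomes and lysosomes had 2492 on the tumor-labelled array, 2452 on the doxycycline-labelled array and 336 on the control-labelled array, 7.39-fold and 7.27-fold brighter than on the last. Vamp4, of the trans-Golgi network and endosomes, had 1687, 2581 and 874, so that it was brightest on the doxycycline-labelled array (2.95-fold over control) and 1.93-fold brighter on the tumor-labelled array than on the control-labelled array. Vamp1, a synaptic vesicle VAMP, stepped down over 633, 423 and 308 in that order and passed 2-fold only between the tumor-labelled and control-labelled arrays (2.05-fold). Vamp3, the VAMP of recycling endosomes, had 1052, 1066 and 1052, which are within 1.01-fold of each other. Vamp8, of endosomes and secretory granules, had 2367, 2367 and 1767, and Vamp5, described in muscle, had 351, 311 and 399. The probe set that names Vamp2 also names another gene and was not used.

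The syntaxin-binding genes held the widest difference of all members, that of the brighter probe set of Stxbp4. Stxbp4, whose protein binds syntaxin 4 in insulin-responsive cells, had 1153 on the tumor-labelled array, 1256 on the doxycycline-labelled array and 79.8 on the control-labelled array (14.3-fold and 15.6-fold). Its second probe set had 524, 588 and 203, or 2.57-fold and 2.88-fold, so that both probe sets agree in direction and differ in size. Over all genes with several probe sets above the array medians, the median disagreement in log2 units was 0.38 for tumor minus control, 0.37 for high doxycycline minus control and 0.055 for tumor minus high doxycycline, and Stxbp4 was the only member with more than 1 probe set. Stxbp5l, a tomosyn that competes with VAMPs for the SNARE complex, had 455, 206 and 89.8. It was the one member that stepped down by more than 2-fold from each array to the next in that order, although the values on the doxycycline-labelled and control-labelled arrays were below their medians. Its relative Stxbp5 had 625 on every array. Munc18-type genes gave smaller differences, with 874, 874 and 943 for Stxbp2 and 565, 489 and 602 for Stxbp3, the gene with the full CRE shown above. Stxbp6, which encodes a short SNARE-like inhibitor, was below every median.

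Of the complexins, Cplx1 lay above the array medians and its relatives below them. Cplx1, the clamp of neuronal and endocrine release, had 5679 on the tumor-labelled array, 3249 on the doxycycline-labelled array and 1486 on the control-labelled array (3.82-fold and 2.19-fold). It stepped down in this order, with 1.75-fold between the first and the second. Cplx2 had 197, 197 and 218, and Cplx3 and Cplx4, the complexins of the retina, lay between 70.8 and 101 on all arrays.

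Synaptotagmins differed in both directions. Syt4, a synaptotagmin of dense-core vesicles, had 3664 on the tumor-labelled array, 3359 on the doxycycline-labelled array and 1451 on the control-labelled array (2.52-fold and 2.31-fold). Syt11, which like Syt4 lacks full calcium binding, had 2796, 2287 and 1217 (2.30-fold and 1.88-fold). Syt1, the fast calcium sensor of synaptic vesicles, had 426, 201 and 158 and was above the median on the tumor-labelled array alone. Syt7, a slower and more sensitive calcium sensor of granules and lysosomes, ran the other way with 1747, 2510 and 4067, that is 2.33-fold and 1.62-fold dimmer than on the control-labelled array. Of the family's 11 members above the filter, 3 were at least 2-fold brighter on the tumor-labelled than on the control-labelled array (27.3%, with 18.5% of all genes). Dimmer was 1, Syt7 (9.09%, with 10.2% of all genes), and the median log2 difference of the 11 was 0.003. On the doxycycline-labelled array 1 of 9 was brighter than on the control-labelled array (11.1%, with 17.4% of all genes) and 0 were dimmer (8.45% of all genes). Syt17 was brightest on the doxycycline-labelled array (1258, 2275 and 1255), and Syt14 had 922, 922 and 566. The others above the filter in any comparison (Syt3, Syt5, Syt6, Syt12 and Syt15) differed by at most 1.65-fold.

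SV2 and RAB3 genes, which mark vesicles themselves, also split by member. Sv2c had 562 on the tumor-labelled array, 1342 on the doxycycline-labelled array and 1349 on the control-labelled array, and was 2.39-fold and 2.40-fold dimmer on the first than on the others. Sv2a had 905, 830 and 897, and Sv2b had 122, 122 and 124, below every median. Rab3b, a RAB3 of endocrine and epithelial cells, had 2375, 1401 and 440 (5.38-fold and 3.18-fold over the control-labelled array). Rab3a, the main RAB3 of synaptic vesicles, had 2791, 2277 and 1084 (2.57-fold and 2.10-fold). Rab3c was brightest on the doxycycline-labelled array, with 3751, 6249 and 3043, so that it passed 2-fold there (2.05-fold) and had 1.23-fold on the tumor-labelled array. Rab3d, of exocrine secretory granules, had 522, 457 and 631 and was the RAB3 gene brightest on the control-labelled array.

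**Figure D3:**
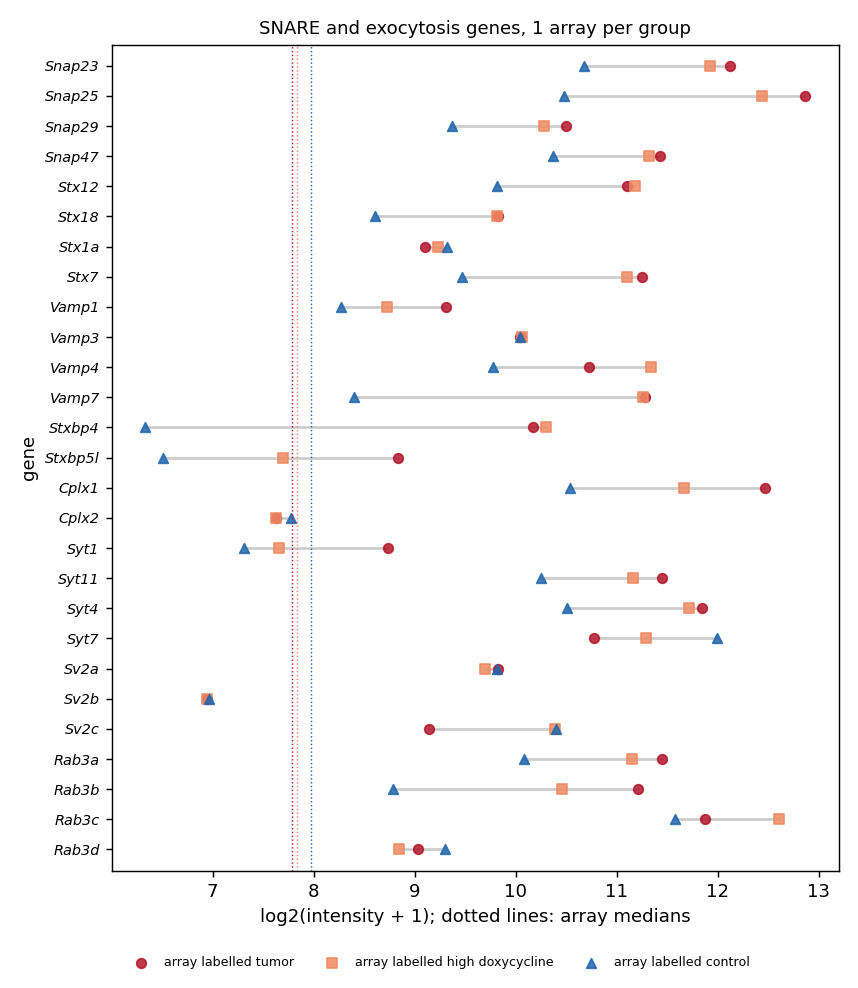
Values on the log2(intensity + 1) scale of the 21 members past 2-fold in any comparison and of the other core fusion genes, on the tumor-labelled (circles), doxycycline-labelled (squares) and control-labelled (triangles) arrays; dotted lines are the array medians. The triangle lies farthest left for most genes, such as Vamp7 (336) and Snap25 (1421), and farthest right for Syt7 (4067).

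Functions were read from lists made by hand that leave out some members. Among those left out were Syt7, dimmer on the tumor-labelled than on the control-labelled array, and Rab3b, brighter there. By function, 7 of 13 bright members listed for neuronal and regulated secretion were brighter on the tumor-labelled array than on the control-labelled array. Dimmer was 1 (median log2 difference 1.04). On the doxycycline-labelled array 5 of 11 were brighter with 0 dimmer (median 0.46). The brighter shares were 53.8% and 45.5%, where 18.5% and 17.4% of all genes were brighter. Of 21 members of general membrane traffic, 7 and 6 were brighter in the same comparisons with 0 dimmer (33.3% and 28.6%, beside the same 18.5% and 17.4%), and the median was 0.63 in each. Members of both lists were thus among the brighter ones. The brightness filter kept 13 and 11 of the 20 neuronal members measured in these comparisons, but all 21 general ones. Syt1 and Stxbp5l passed it only through the tumor-labelled array. Shares and medians of the lists are therefore not like for like, and whether the lists differ was not tested. Over all 59 members the control-labelled array gave the lowest of the 3 values for 30 (50.8%, with 31.6% of all genes) and the highest for 20 (33.9%, with 42.5% of all genes).

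The tumor-labelled and doxycycline-labelled arrays lay close together for most members. At least 2-fold brighter on the tumor-labelled array were 2 of 46, Stxbp5l (2.20-fold) and Syt1 (2.11-fold), or 4.35% where 1.58% of all genes were, and 1 was dimmer, Sv2c (2.17%, where 1.94% of all genes were). The median difference was 0 over the 46 members and 0 over all genes. Both brighter genes were dim, and neither passed 2-fold with a pseudocount of 64. Next in size, under 2-fold, were Syt17, 1.81-fold dimmer on the tumor-labelled array, Cplx1, 1.75-fold brighter, Rab3b, 1.70-fold brighter, and Rab3c, 1.67-fold dimmer. Exactly equal values stood on both arrays for 15 of 60 member probe sets (25.0%) and for 34.6% of all probe sets. Stx3, Stxbp5 and Syt10 had the same value on all 3 arrays, for a reason not stated in these sources.

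Other genes of exocytosis were read from a list of 69, all measured, of which 48 passed the filter in each comparison. On the tumor-labelled array 14 of 48 were at least 2-fold brighter than on the control-labelled array (29.2%, with 18.5% of all genes) and 0 were dimmer (10.2% of all genes), with a median log2 difference of 0.32. On the doxycycline-labelled array 14 of 48 were brighter (17.4% of all genes) and 0 dimmer (8.45% of all genes), with a median of 0.32. Between the tumor-labelled and doxycycline-labelled arrays 0 were brighter (1.58% of all genes) and 1 was dimmer (1.94% of all genes), the vesicular acetylcholine transporter gene Slc18a3, with 235 and 498.

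The largest of these differences against the control-labelled array were those of the single genes Bet1, Napb, Cadps and Snapin. Relatives differed less. Bet1l was 1.35-fold and Napg 2.06-fold brighter on both other arrays. Napa was 1.77-fold brighter on the tumor-labelled and 1.72-fold on the doxycycline-labelled array, and Cadps2 lay below the filter. Bet1, a SNARE between endoplasmic reticulum and Golgi, had 1313 on the tumor-labelled array, 1236 on the doxycycline-labelled array and 129 on the control-labelled array (10.1-fold and 9.48-fold). Napb, a SNAP adaptor of the ATPase NSF that takes spent SNARE complexes apart, had 2180, 2489 and 332 (6.55-fold and 7.48-fold). Cadps, which primes dense-core vesicles, had 1240, 1156 and 200 (6.17-fold and 5.75-fold), and Snapin, which binds SNAP25, had 3072, 2697 and 793 (3.87-fold and 3.40-fold). All 4 were several-fold dimmer on the control-labelled array than on the other arrays. Sec22a, a relative of the reticulum SNARE Sec22b, had 550, 433 and 168, and the endosomal and Golgi SNARE gene Vti1a had 1293, 1401 and 503. Synaptic vesicle and active zone genes were mixed. Syngr3, a synaptogyrin of synaptic vesicles, had 987, 719 and 334 (2.95-fold and 2.15-fold), and Erc1, an active zone scaffold gene, had 919, 917 and 420 (2.19-fold and 2.18-fold). Below 2-fold, Syp, synaptophysin of the vesicle membrane, had 6294, 6591 and 7158, and Unc13a, which opens syntaxin for assembly, had 1351, 2339 and 1984.

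**Figure D4:**
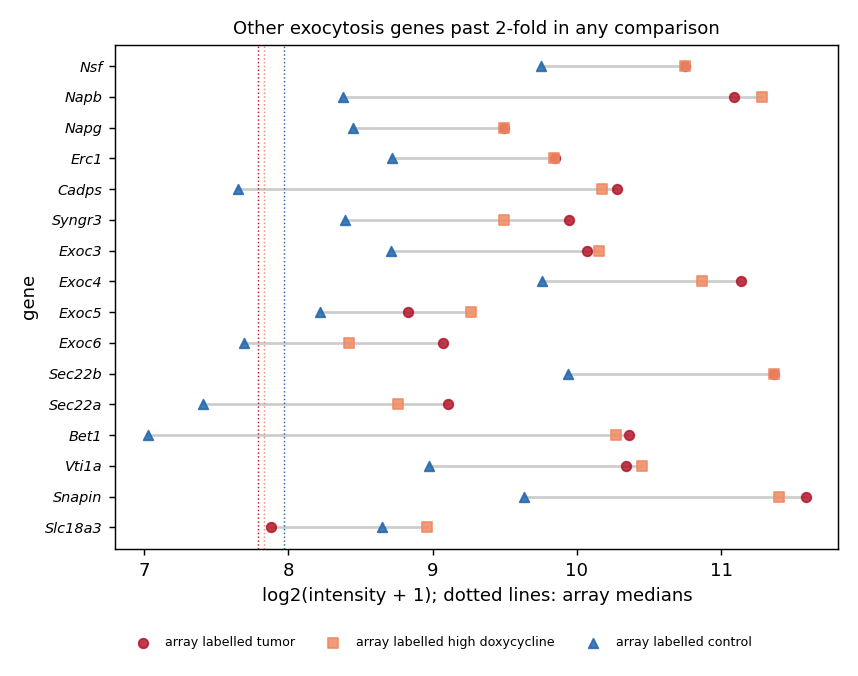
Values on the log2(intensity + 1) scale of the 16 other exocytosis genes past 2-fold in any comparison, on the tumor-labelled (circles), doxycycline-labelled (squares) and control-labelled (triangles) arrays, with array medians as dotted lines. The triangle lies farthest left for every gene drawn except Slc18a3.

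Promoter letters were counted in the members. RefSeq windows from 250 bases before to 50 after a transcript start (GRCm38.p6) were at hand for 49 members, and both strands were searched. Cplx4, Snap25, Syt4, Syt5, Syt7, Syt12, Syt13, Syt17, Vamp3 and Vamp7 had no entry. The CRE TGACGTCA stood in the window of 1 of 49 members (2.04%), Stxbp3, 108 bases upstream of the start, and in 2.03% of all 27025 genes. Its core TGACG, which the full CRE contains, stood in 14 of 49 members (28.6%) and in 23.0% of all genes, and the AP-1 letters TGANTCA stood in 3 members (6.12%) and in 8.97% of all genes. Of the 8 members with a window among the 11 brighter on both arrays than on the control-labelled array, 0 held the full CRE, 3 held its core (Cplx1, Rab3a and Rab3b) and 0 held TGANTCA. In the stretches printed above, the core began 36 bases upstream of the start in Rab3a and 197 bases upstream in Rab3b. A match describes letters in a window and not a bound site.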

How the data were processed

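Per the labels, biotin-labelled total RNA was measured on Affymetrix MoGene-1_0-st-v1 arrays. The authors deposited linear intensities for 28856 probe sets. The sources used here do not say how these were corrected, summarised or normalized. Median intensities were 219.8 (tumor), 226.7 (high doxycycline) and 250.0 (control). The number of arrays, 1 per group, limits the precision.

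Genes were named from the platform annotation (21789 probe sets with 1 symbol, 1621 with several, 5446 with none; 21698 of the first found in RefSeq by Entrez number). For a gene with several probe sets the brightest on average was used. Differences are of log2(intensity + 1) as deposited, which understates changes of dim genes. Counts need a difference of 1 and the brighter array above its median. Python 3.11.15 and pandas 2.3.3 were used. The counting code was run on simulated data with large differences planted in bright genes and little noise. That run checks the code only and gives no support to the counts reported here.

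The members, gene lists and alternatives were chosen with earlier results of these data known. Values are given for every member past 2-fold in any comparison, for core fusion genes and for up to 5 other exocytosis genes a comparison with the largest differences; other members and genes named were chosen after their values were seen.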

Additional observations from a re-analysis of the deposited data

How the results depend on the processing

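No paired analysis was possible because each group has 1 array. Differences of single named genes were recomputed under 8 alternatives, which gave 645 values, counted once per gene, comparison and alternative. Of these, 624 kept their call (past 2-fold and above the filter, or not). The other 21 gained or lost it, some of them through the filter alone, and 0 of those called changed sign. The alternatives on probe sets could change only Stxbp4, and those on the filter change no difference. Much of this agreement was thus fixed in advance. A shift of the arrays to a common median adds 0.19 to tumor minus control, 0.14 to high doxycycline minus control and 0.044 to tumor minus high doxycycline. Counts of members brighter than on the array labelled control ran from 14 to 19 for tumor and from 8 (quantile normalization; 13 as deposited) to 17 for high doxycycline. Under quantile normalization the high doxycycline median was 0.30, and the 1 dimmer gene of the other exocytosis list between tumor and high doxycycline became 0. Without the brightness filter the member medians were 0.024 for tumor minus control and 0.076 for high doxycycline minus control, and at percentile 75 they were 0.83 and 0.91. At percentile 75 and with a pseudocount of 64, the 2 members brighter on tumor than on high doxycycline became 0, and so did the 1 dimmer gene of the other list. The medians over members therefore depend on how bright a member must be, and the cause was not tested. Array signal limits members near or below the median most, such as Stxbp5l and Syt1.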
